A study of Mus musculus with 9 samples.

Results

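Early response genes are transcribed soon after a signal reaches a cell, and many encode transcription factors that set the next round of genes. The 10 genes described here are the zinc finger factors Egr1, Egr2 and Egr3, the orphan nuclear receptors Nr4a1, Nr4a2 and Nr4a3, the growth regulator Myc, the stress factor Atf3 and the early response genes Ier2 and Ier3. They were chosen by symbol from an array table of 21212 gene rows, and each of the 10 was found on 1 row, which carries its Entrez identifier (13653 for Egr1, 13654 for Egr2, 13655 for Egr3, 15370 for Nr4a1, 18227 for Nr4a2, 18124 for Nr4a3, 17869 for Myc, 11910 for Atf3, 15936 for Ier2 and 15937 for Ier3). None of them was among the 33.3% of rows with the lowest mean. Ier2 was the dimmest, with 40.8% of the rows below its mean, and Atf3 the brightest, with 98.0% below.

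The cells were primary microglia from the brains of P0 to P1 wild-type CD-1 mouse pups, pooled by litter, and were grown for 5 to 7 days per the labels in medium with 10 ng/ml each of M-CSF and GM-CSF. Per the study's text they came from its first isolation, on a Percoll gradient, and CD11b beads were used for a later one. All cells were then kept overnight without serum. They received PBS (resting, M0), 100 ng/ml LPS (M1-skewing) or 20 ng/ml IL-4 (M2a-skewing) for 4 h, with 3 arrays per condition. LPS is the bacterial ligand of Toll-like receptor 4, and IL-4 is a cytokine that acts through STAT6. The comparisons ask which of these genes differed between resting and M1- or M2a-skewed microglia, and between these 2 stimulated states. Neither the labels nor the methods tell whether the arrays of a condition are separate preparations. The p-values thus take in no more than array-to-array spread, and its technical share is not known.

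Genes known to answer to each stimulus were high on the arrays so labelled, Il6 and Nos2 with LPS (log2 differences from PBS of 8.73 and 6.05) and Chil3 and Retnla with IL-4 (5.47 and 5.19). Arg1 was less even, with 3.15 ± 0.58 (SE) for IL-4 (limma adjusted p = 0.0182) and 0.71 for LPS (0.379). Il6 also rose by 0.81 with IL-4 (0.00346), but between dim values, with means of 3.52 with PBS and 4.34 with IL-4. Arg1, the highest of these 5 genes with PBS, read 7.50, 6.93 and 9.36 on PBS replicates 1, 2 and 3. Of 11 microglia markers measured, Csf1r had condition means between 10.86 and 11.85, whereas Gpr34 (3.55 to 5.02) and Siglech (5.84 to 6.02) were low in all conditions. LPS lowered 8 of the 11 and IL-4 lowered 1 (22.4% and 2.05% of all rows). The arrays were not alike within a condition. The median of the 11 microglia markers was 10.35 on PBS replicate 3 and 8.12 and 8.21 on the other PBS arrays, 8.98 on LPS replicate 3 and 7.74 and 7.60 on the other LPS arrays, and between 9.31 and 9.55 on the IL-4 arrays. The median of 12 motile cilia markers, of ependymal cells, was 9.19 on PBS replicate 3 and 8.83 on LPS replicate 3, between 6.83 and 7.27 on the other PBS and LPS arrays, and between 8.54 and 8.84 on the IL-4 arrays. Of 7 fibroblast and meningeal markers, 4 were higher with IL-4 than with PBS and none with LPS, and of 5 endothelial markers 2 were higher with IL-4 (Pecam1 by 0.79 and Cdh5 by 1.14). Over all rows 3.35% were higher with IL-4 and 15.4% with LPS. Astrocyte marker medians lay between 10.28 and 10.82, oligodendrocyte lineage medians between 7.03 and 8.80, with both replicate 3 arrays of PBS and LPS highest, and neuron, endothelial and neutrophil medians at or below 6.90. The neuron markers Stmn2 (condition means of 10.10 to 10.61) and Map2 (9.73 to 10.09) were bright, and the remaining neuron markers had condition means of 7.40 or lower. In such bulk RNA, fewer cells of a type and less RNA per cell cannot be told apart. The part of these marker differences in the results was not tested.

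EGR proteins bind GC-rich promoter sites and are held in check by the corepressors NAB1 and NAB2. NR4A receptors need no known ligand, bind DNA alone or with retinoid X receptors, and restrain inflammatory genes in macrophages. In many cells these genes answer to cyclic AMP response element (CRE) binding proteins and to serum response factor, which binds CArG boxes, and Ier3 is a well-known NF-κB target. The promoter sequences are shown because they hold sites of these kinds. RefSeq sequences (GRCm38.p6) were at hand for 6 of the 10 genes, and the 250 bases before the transcription start are printed 5′ to 3′. Capitals mark the CRE half-site TGACG on either strand (read as CGTCA on the other), the CArG box of Egr2 and, in Ier3 alone, a match to the NF-κB site.
Nr4a1, chr15:101266596-101266845, plus strand: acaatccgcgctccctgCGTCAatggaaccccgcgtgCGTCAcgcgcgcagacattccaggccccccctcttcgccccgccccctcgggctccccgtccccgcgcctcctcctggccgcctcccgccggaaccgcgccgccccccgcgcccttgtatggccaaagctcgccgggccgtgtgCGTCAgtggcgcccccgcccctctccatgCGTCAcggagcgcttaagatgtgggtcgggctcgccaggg
Nr4a2, chr2:57124004-57124253, minus strand: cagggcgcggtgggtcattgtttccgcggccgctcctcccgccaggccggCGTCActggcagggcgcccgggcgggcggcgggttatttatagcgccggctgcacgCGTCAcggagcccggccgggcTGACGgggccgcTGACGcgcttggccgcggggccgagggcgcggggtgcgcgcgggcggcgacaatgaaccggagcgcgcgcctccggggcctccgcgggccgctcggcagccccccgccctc
Nr4a3, chr4:48045055-48045304, plus strand: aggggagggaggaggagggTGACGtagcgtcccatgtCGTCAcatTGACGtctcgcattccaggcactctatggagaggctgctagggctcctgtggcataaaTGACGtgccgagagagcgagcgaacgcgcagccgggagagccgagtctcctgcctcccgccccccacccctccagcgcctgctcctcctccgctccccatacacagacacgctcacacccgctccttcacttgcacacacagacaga
Egr2, chr10:67537619-67537868, plus strand: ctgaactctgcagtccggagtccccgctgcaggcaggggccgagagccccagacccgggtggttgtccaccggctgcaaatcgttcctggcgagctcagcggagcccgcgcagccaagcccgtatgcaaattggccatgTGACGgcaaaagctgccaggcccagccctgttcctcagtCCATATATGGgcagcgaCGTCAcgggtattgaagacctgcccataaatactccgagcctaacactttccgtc
Atf3, chr1:191183334-191183583, minus strand: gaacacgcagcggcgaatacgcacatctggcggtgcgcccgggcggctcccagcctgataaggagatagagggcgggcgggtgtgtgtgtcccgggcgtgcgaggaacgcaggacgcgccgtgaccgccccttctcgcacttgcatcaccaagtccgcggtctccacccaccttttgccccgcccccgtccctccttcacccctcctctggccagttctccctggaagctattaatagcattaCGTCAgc
Ier3, chr17:35821463-35821712, plus strand: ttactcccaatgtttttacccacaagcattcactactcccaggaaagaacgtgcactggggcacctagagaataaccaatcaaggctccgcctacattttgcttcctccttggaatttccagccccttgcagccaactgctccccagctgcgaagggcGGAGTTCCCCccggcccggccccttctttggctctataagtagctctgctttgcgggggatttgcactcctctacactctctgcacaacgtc

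The 3 NR4A promoters each held 4 CRE half-sites. Egr2 had 2 of them, on either side of a CArG box at −72 to −63, in the window shown. That window was picked for having the most matches to these motifs, so its matches cannot be set against the shares of all windows. Of the 5 Egr2 windows in the table, 2 others with nearby starts held the same sites and 1 held a CArG box and no half-site. A further 1 held an E-box (CACGTG, in 6.02% of all windows) and a pair of overlapping NF-κB matches. Atf3 had 1 half-site close to its start. A half-site was found in the same 250 bases of 17.8% of the 32851 promoter windows of the mouse genome, a CArG box in 1.47% and the NF-κB site in 7.25%. Nr4a1 and Nr4a2 also held the letters GCGNGGGCG of an EGR site (4.70% of all windows). The full CRE, TGACGTCA (1.55%), the AP-1 site TGANTCA (6.75%) and the STAT6 site, TTC and GAA with 4 bases between (5.85%), were not found in these windows for any of the 6 genes. Such matches describe sequence and were not measured as binding.

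**Figure D1:**
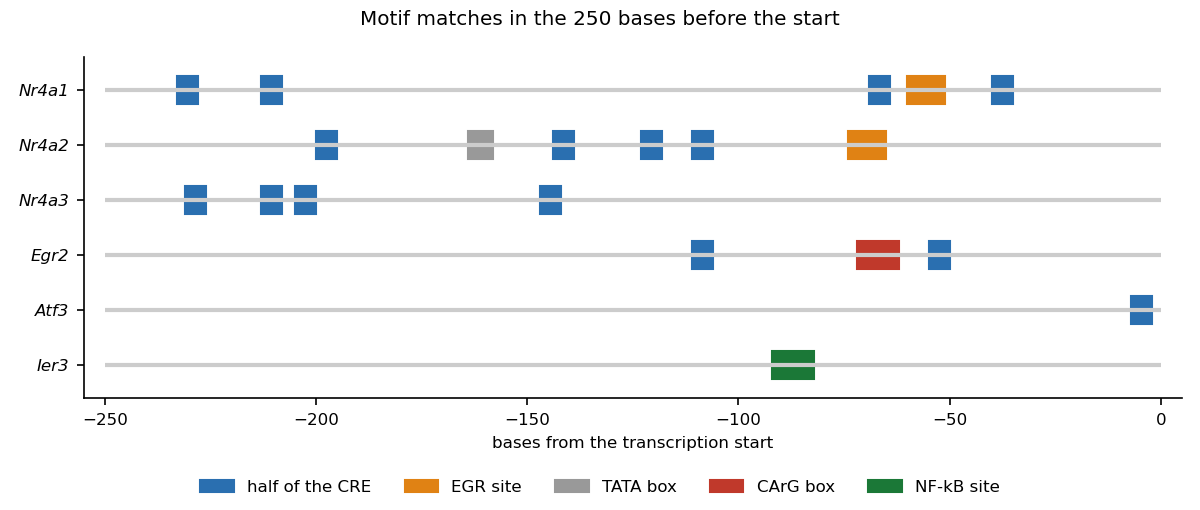
Motif matches in the 250 bases before the transcription start of 6 early response genes; the x axis gives the distance from the start in bases and each box covers 1 match on either strand. Nr4a1, Nr4a2 and Nr4a3 each show 4 CRE half-sites, Egr2 shows 2 and a CArG box, Atf3 shows 1, and Ier3 shows an NF-κB match and no half-site.

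LPS raised 7 of the 10 genes and lowered none. All 3 NR4A receptors, Myc, Atf3, Ier2 and Ier3 rose, and none of the 3 EGR genes passed the test (adjusted p under 0.05, limma, 3 arrays against 3). Over all rows 37.8% were called, 15.4% higher and 22.4% lower with LPS. The median log2 difference of the 10 genes was 0.90, and that of all rows 0.01. For the same 7 genes every LPS array lay above every PBS array, as it did for 20.4% of all rows, while 25.4% of all rows and none of the 10 genes lay wholly below. Subtracting each array's median moved the median of all rows by 0.11 for this comparison, and by 0.15 for LPS against IL-4, so that differences of this size depend on the scaling.

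IL-4 raised 5 of the 10 genes and lowered none. None was lower at an unadjusted p under 0.05 either, with IL-4 or with LPS. These were Egr1, Egr2, Nr4a2, Myc and Atf3, while 5.40% of all rows were called, 3.35% higher and 2.05% lower. The median log2 difference of the 10 genes was 0.50, against −0.02 for all rows. Every IL-4 array lay above every PBS array for 7 genes (14.7% of all rows), namely these 5, Nr4a3 and Ier3, and none lay wholly below (14.3% of all rows). The count depends on the arrays. It was 2 without PBS replicate 2, IL-4 replicate 2 or IL-4 replicate 3, 3 without PBS replicate 1 or IL-4 replicate 1, and 7 without PBS replicate 3. It was 8 without replicate 3 of both PBS and LPS and 1, Egr2, with Student's t-test. PBS replicate 3 had a motile cilia marker median of 9.19, near those of the IL-4 arrays (8.54 to 8.84). The other PBS arrays had 7.18 and 7.27. Fits without PBS replicate 3 thus set IL-4 only against PBS arrays with lower cilia and microglia medians. The part of this in the counts was not tested.

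**Figure D2:**
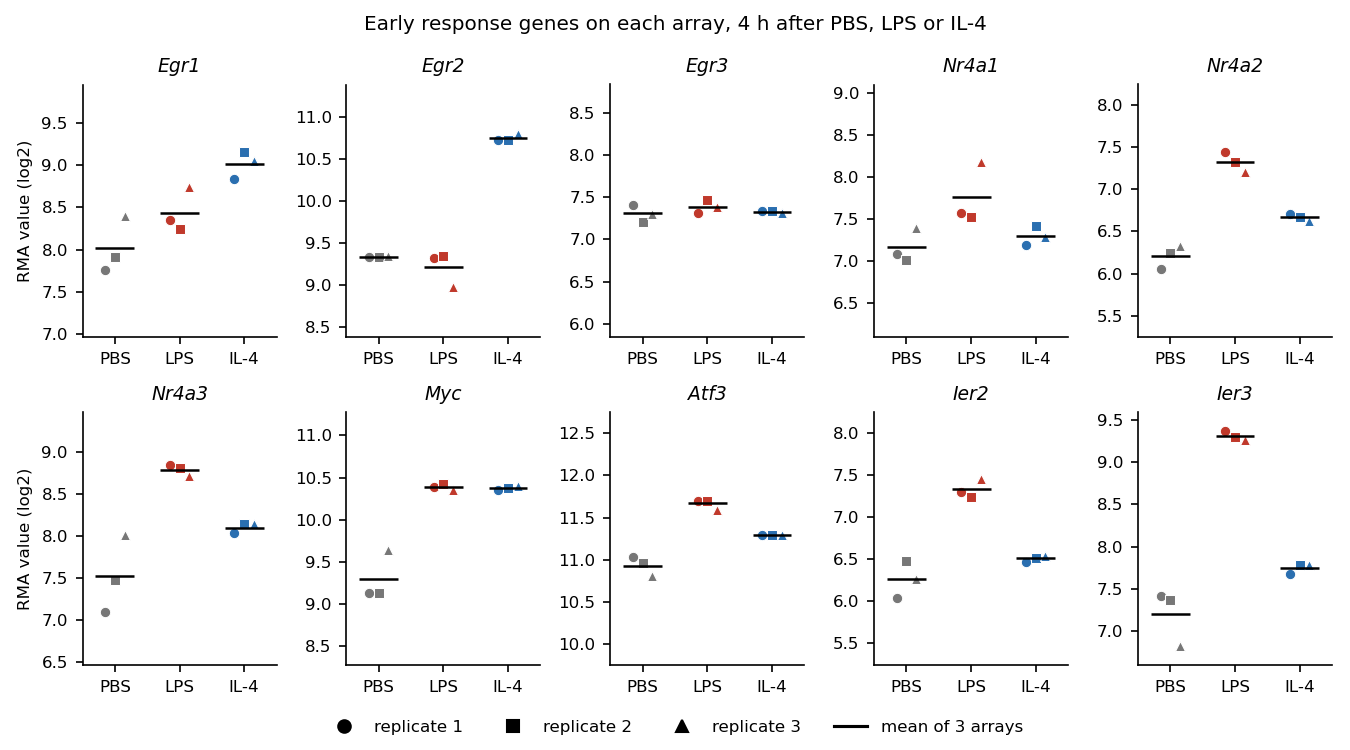
Deposited RMA values (log2) of the 10 early response genes on each of the 9 arrays; each panel spans 3 log2 units, marker shapes give the replicate number and the bar is the mean of 3 arrays. Egr2 stands out on the IL-4 arrays (10.72 to 10.79), Ier3 on the LPS arrays (9.26 to 9.37), and Myc is high on both.

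Egr2, a zinc finger factor also used as a mark of alternatively activated macrophages, rose more with IL-4 than the other 9 genes did. On the log2 scale it read 9.33, 9.33 and 9.34 on the PBS arrays, 9.32, 9.34 and 8.97 on the LPS arrays and 10.72, 10.72 and 10.79 on the IL-4 arrays. The PBS and LPS arrays overlapped, and all IL-4 arrays lay 1.38 or more above them. Against PBS, Egr2 rose by 1.41 ± 0.09 (SE) on the log2 scale with IL-4, or 2.66-fold (limma adjusted p = 0.000140), and only 0.160% of all rows had a smaller p. The rise passed under all 19 alternative settings. With LPS the difference was −0.12 (95% confidence interval −0.34 to 0.09, adjusted p = 0.340), and it did not pass under any of them. Egr2 was lower with LPS than with IL-4 by a log2 difference of −1.54 ± 0.09 (adjusted p = 3.98e-06).

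Egr1, the founding gene of the family and an early target of growth factor signals, differed more among the arrays of a condition. It read 7.76, 7.91 and 8.40 with PBS, 8.35, 8.24 and 8.74 with LPS and 8.84, 9.16 and 9.05 with IL-4. All IL-4 arrays were above all others, while the LPS arrays overlapped with PBS replicate 3, which lay 0.56 above the mean of the other PBS arrays, as LPS replicate 3 lay 0.44 above the other LPS arrays. Egr1 rose by 0.99 ± 0.18 with IL-4 (1.99-fold, adjusted p = 0.0192). That rise no longer passed when PBS replicate 1 was left out (0.86, adjusted p = 0.0723), nor without PBS replicate 2 (0.94, 0.0807), IL-4 replicate 2 (0.92, 0.0853) or IL-4 replicate 3 (0.97, 0.0845). Student's t-test did not call the rise either (adjusted p = 0.114). With LPS the difference of 0.42 ± 0.18 did not pass (adjusted p = 0.112). It passed under 5 of the 19 alternative settings. These were the replicate number as a block (adjusted p = 0.0329), the fit without PBS replicate 3 (0.61, 0.0168) and subtracted array medians (0.53, 0.0358). The others were array weights (0.43, 0.0102) and the fit without replicate 3 of both LPS and PBS (0.46, 0.0101).

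Set directly against each other, LPS gave lower Egr1 than IL-4, with a log2 difference of −0.57 ± 0.18 (adjusted p = 0.0327). That call held under 12 of the 19 alternative settings. Among those where it did not hold were the fits without LPS replicate 1 (−0.53, adjusted p = 0.0979), LPS replicate 2 (−0.47, 0.103), IL-4 replicate 2 (−0.50, 0.101) or IL-4 replicate 3 (−0.55, 0.0902). It did not hold with array medians subtracted (−0.42, 0.0599) or with Student's t-test (adjusted p = 0.0753) either. Egr3, the related factor best known from lymphocytes and muscle spindles, stayed between 7.21 and 7.47 on all 9 arrays. Its differences were 0.08 with LPS (interval −0.07 to 0.23) and 0.03 with IL-4 (interval −0.12 to 0.17), and neither passed. LPS against IL-4 gave 0.06, which passed only with array medians subtracted (0.21, adjusted p = 0.0294) and after quantile normalization (0.22, 0.0340). The family thus held one gene called with IL-4 under every setting, one whose call depended on the arrays and one with no call against PBS under any setting.

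The NR4A receptors moved with LPS. Nr4a2 (NURR1), known for its part in dopamine neurons and as a brake on microglial inflammation, read 6.05, 6.24 and 6.33 with PBS, 7.44, 7.33 and 7.21 with LPS and 6.71, 6.67 and 6.63 with IL-4. The 3 conditions did not overlap, and the IL-4 arrays lay in between. Nr4a2 rose by 1.12 ± 0.09 with LPS (2.17-fold, adjusted p = 1.61e-05) and by 0.46 ± 0.09 with IL-4 (1.38-fold, adjusted p = 0.0191), and it was higher with LPS than with IL-4 by 0.66 ± 0.09 (adjusted p = 0.000355). The rise with IL-4 lost its call without any one of PBS replicates 1 and 2 and the 3 IL-4 replicates (adjusted p between 0.0551 and 0.0790). Student's t-test did not call it either (adjusted p = 0.0927).

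Nr4a3 (NOR1) showed the same order of conditions. It had the values 7.10, 7.48 and 8.01 with PBS, 8.84, 8.81 and 8.71 with LPS and 8.04, 8.14 and 8.14 with IL-4. PBS replicate 3 came within 0.03 of the lowest IL-4 array. With LPS Nr4a3 rose by 1.26 ± 0.19 (2.39-fold, adjusted p = 0.000862). The difference of 0.58 ± 0.19 with IL-4 did not pass (adjusted p = 0.130), but did without PBS replicate 3 (0.82, adjusted p = 0.00419). It also passed with array weights (0.72, 0.000909) and without replicate 3 of both LPS and PBS (0.82, 0.00129). LPS arrays exceeded IL-4 arrays by 0.68 ± 0.19 (adjusted p = 0.0180), a call lost without LPS replicate 1 (0.66, 0.0566) or IL-4 replicate 1 (0.65, 0.0560).

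Nr4a1 (NUR77), which in the periphery marks patrolling monocytes, changed least of the 3. Its values were 7.09, 7.02 and 7.40 with PBS, 7.58, 7.53 and 8.18 with LPS and 7.20, 7.42 and 7.29 with IL-4. All LPS arrays were highest, and LPS replicate 3 lay 0.63 above the other LPS arrays, as PBS replicate 3 lay 0.34 above the other PBS arrays. The rise with LPS was 0.60 ± 0.18 (1.51-fold, adjusted p = 0.0271). Without PBS replicate 1 or 2 it was 0.56 and 0.52 and did not pass (adjusted p = 0.0787 and 0.0909), nor did it with the methods' test (0.167) or the 6 arrays of the comparison alone (0.0699). Without LPS replicate 3 it was 0.39 and passed (adjusted p = 0.0328). With IL-4 the difference was 0.13 (interval −0.27 to 0.54), which became 0.25 and passed without replicate 3 of both LPS and PBS (adjusted p = 0.0350), and LPS against IL-4 gave 0.46 (interval 0.06 to 0.86, adjusted p = 0.0598). The latter passed under 7 of the 19 settings, among them subtracted array medians (0.61, adjusted p = 0.0116) and quantile normalization (0.63, 0.0139). The replicate block, which also tied the IL-4 arrays (0.0262), and the fits without PBS replicate 3 (0.0486) or LPS replicate 2 (0.58, 0.0432) were others. Without LPS replicate 3 the difference of LPS against IL-4 was 0.25 and did not pass (0.109).

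**Figure D3:**
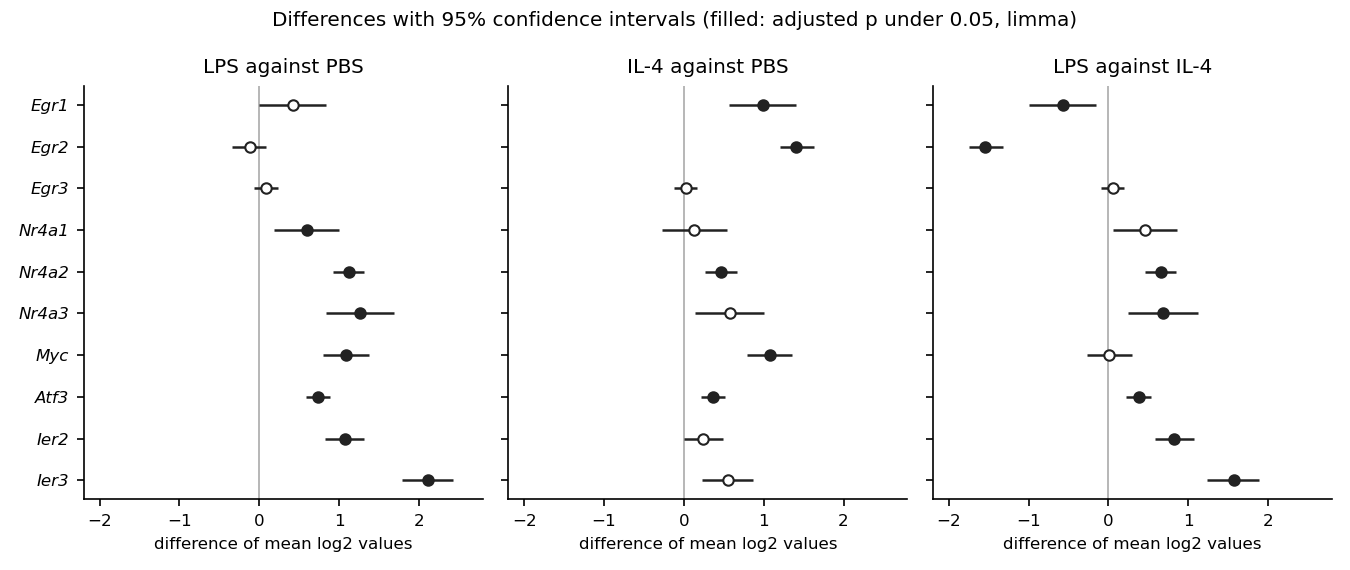
Differences of mean log2 values between conditions for the 10 early response genes, with 95% confidence intervals from limma; filled points have an adjusted p under 0.05. The LPS and IL-4 panels share their PBS arrays; Egr2 is at −0.12 with LPS and 1.41 with IL-4, Myc at 1.09 and 1.08, and Ier3 at 2.11 and 0.55.

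Myc, which pairs with MAX to drive growth and ribosome genes, rose with both stimuli. It read 9.13, 9.13 and 9.64 with PBS, 10.39, 10.42 and 10.35 with LPS and 10.35, 10.38 and 10.40 with IL-4. PBS replicate 3 lay 0.51 above the other PBS arrays, yet all 6 stimulated arrays were at least 0.71 above it. The rise was 1.09 ± 0.13 with LPS (2.13-fold, adjusted p = 0.000180) and 1.08 ± 0.13 with IL-4 (2.11-fold, adjusted p = 0.00219). Between LPS and IL-4 the difference was 0.01, with a 95% confidence interval of −0.27 to 0.30 (adjusted p = 0.936). It was 0.17 with array medians subtracted and −0.10 after quantile normalization, and passed under none of the 19 settings.

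Partners of MYC did not move together. Of 12 genes of the MAX network, LPS raised 4 and lowered 5, and IL-4 lowered 1 and raised none. Mxd1, a MAX partner that opposes MYC, rose by 2.59 with LPS and was −0.27 from PBS with IL-4, which did not pass. Max itself rose by 0.67 with LPS, whereas the antagonists Mxd4 (−1.38) and Mxi1 (−0.81) fell, Mxi1 also with IL-4 (−0.33). Mlx, a related partner gene, was −0.08 and −0.01 from PBS and did not pass, and Max was −0.11 with IL-4. Of 24 growth and ribosome assembly genes known as MYC targets, IL-4 raised 10 and lowered none (median 0.31), and LPS raised 9 and lowered 2 (median 0.06). Over all rows 15.4% were higher and 22.4% lower with LPS, and 3.35% and 2.05% with IL-4. The ribosome assembly genes Nop58 (0.57 with LPS and 0.66 with IL-4) and Wdr43 (1.36 and 0.41) rose with both, as did Ppan (0.22 and 0.48). Rrp9, which acts in ribosomal RNA processing (0.75), and the polyamine synthesis gene Odc1 (0.58) rose with LPS, and their differences with IL-4 (0.27 and 0.34) did not pass (adjusted p = 0.0595 and 0.209). The nucleolar gene Nop56 (0.44) and the spermidine synthase gene Srm (0.41) rose with IL-4, with 0.01 and −0.03 under LPS, and Cdk4 fell with LPS (−0.53) and was −0.05 with IL-4. Cad, of pyrimidine synthesis, fell by 0.25 with LPS and rose by 0.29 with IL-4, and the RNA polymerase I gene Polr1b (−0.18 and 0.38) passed with neither. Fbl, a nucleolar methyltransferase gene, was −0.01 and 0.10 from PBS without a call. Between the stimuli 2 of the 24 were higher with LPS and 11 with IL-4 (21.0% and 25.9% of all rows). This split became 6 and 7 with array medians subtracted.

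Atf3, a CREB/ATF family factor known to damp Toll-like receptor responses, was bright in all conditions. Its values were 11.03, 10.96 and 10.80 with PBS, 11.70, 11.70 and 11.59 with LPS and 11.29 on each of the 3 IL-4 arrays. The conditions did not overlap, with IL-4 between PBS and LPS. Atf3 rose by 0.74 ± 0.07 with LPS (1.67-fold, adjusted p = 4.41e-05) and by 0.36 ± 0.07 with IL-4 (1.29-fold, adjusted p = 0.0189), and LPS exceeded IL-4 by 0.38 ± 0.07 (adjusted p = 0.00208). The rise with IL-4 did not pass without PBS replicate 2 (adjusted p = 0.0623), without IL-4 replicate 1, 2 or 3 (0.0700, 0.0767 and 0.0796) or with array medians subtracted (0.32, 0.0641). Student's t-test did not call it either (adjusted p = 0.0930).

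Ier3 (IEX-1), a stress-induced gene that protects cells from death and feeds back on NF-κB, had the largest rise of the 10 genes under LPS. Its values were 7.41, 7.37 and 6.82 with PBS, 9.37, 9.30 and 9.26 with LPS and 7.68, 7.78 and 7.78 with IL-4. PBS replicate 3 lay 0.57 below the other PBS arrays, and the LPS arrays lay at least 1.85 above every PBS array. The rise was 2.11 ± 0.14 with LPS (4.32-fold, adjusted p = 6.91e-06), and LPS exceeded IL-4 by 1.57 ± 0.14 (adjusted p = 3.90e-05). With IL-4 the difference from PBS was 0.55 ± 0.14 and did not pass (adjusted p = 0.0645). Without PBS replicate 3 it was smaller and passed (0.36, adjusted p = 0.0114). It also passed with array weights (0.40, 0.00136) and without replicate 3 of both LPS and PBS (0.36, 0.00212).

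Ier2, a nuclear protein of the early growth factor response, read 6.04, 6.48 and 6.27 with PBS, 7.30, 7.24 and 7.45 with LPS and 6.47, 6.52 and 6.54 with IL-4. The LPS arrays stood apart from all others, and the IL-4 arrays overlapped with PBS. Ier2 rose by 1.07 ± 0.11 with LPS (2.09-fold, adjusted p = 7.99e-05), and LPS exceeded IL-4 by 0.82 ± 0.11 (adjusted p = 0.000344). With IL-4 its difference from PBS was 0.24 (interval −0.00 to 0.49, adjusted p = 0.241).

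When the 2 stimulated states were set against each other, 5 genes were higher with LPS (Nr4a2, Nr4a3, Atf3, Ier2 and Ier3), 2 were higher with IL-4 (Egr1 and Egr2) and 3 did not pass. Over all rows 46.9% were called, 21.0% higher with LPS and 25.9% higher with IL-4. The groups did not overlap for 6 genes higher with LPS (28.4% of all rows) and 2 higher with IL-4 (31.5%). The call of 5 genes (Egr2, Nr4a2, Atf3, Ier2 and Ier3) held under all 19 alternative settings.

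The corepressor genes of the EGR factors were called with LPS and not with IL-4. Nab1 rose by 1.09 and Nab2 by 0.56 with LPS. With IL-4 they were 0.09 ± 0.11 and 0.18 ± 0.05 from PBS and did not pass (limma adjusted p = 0.674 and 0.0946). Both were higher with LPS than with IL-4 (Nab2 by 0.38), as was Egr4 (0.28). Egr4, the remaining family member, was 0.14 from PBS with LPS and −0.13 with IL-4, without a call, and the related zinc finger gene Wt1 rose by 0.22 with LPS. Among the retinoid X receptors that pair with NR4A proteins, Rxra fell by 1.93 and Rxrb by 0.34 with LPS, and Rxrg, which was dim (5.37 with PBS), rose by 0.91. With IL-4 Rxrg fell by 0.33, and Rxra had a difference of −0.34 that did not pass.

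More of the other immediate early genes were called with LPS than with IL-4, as was true of all rows. Of 35 genes of this list, LPS raised 24 and lowered 2 (median 0.86), and IL-4 raised 9 and lowered none (median 0.10). Of all rows LPS raised 15.4% and lowered 22.4%, and IL-4 raised 3.35% and lowered 2.05%. The cyclooxygenase gene Ptgs2 (5.63), Nfkbiz (3.63), which encodes an atypical IκB protein, and Phlda1 (2.52) rose most with LPS. Fos (0.20) and Fosb (0.05), the classic members of the list, did not pass with LPS at this time, nor did the neuronal activity genes Npas4 (0.01) and Arc (0.27) or the kinase gene Sgk1 (−0.27). The matrix protein gene Ccn1 rose by 0.37 with LPS and was 0.22 with IL-4 without a call. Pim1, a kinase gene, rose by 2.32 with LPS and was 0.07 with IL-4, which did not pass. Rgs2, a regulator of G protein signals, fell by 1.89 and the clock gene Per1 by 0.28; with array medians subtracted 1 gene of the list was lower. With IL-4 the largest rises were Ptgs2 (1.62), the polo-like kinase gene Plk3 (1.25) and Nfil3 (1.10), a basic leucine zipper factor. Plk3, like Egr1 and Egr2, was higher with IL-4 than with LPS (log2 difference of LPS minus IL-4 −0.73), as were Rgs2 (−1.65) and Per1 (−0.37).

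**Figure D4:**
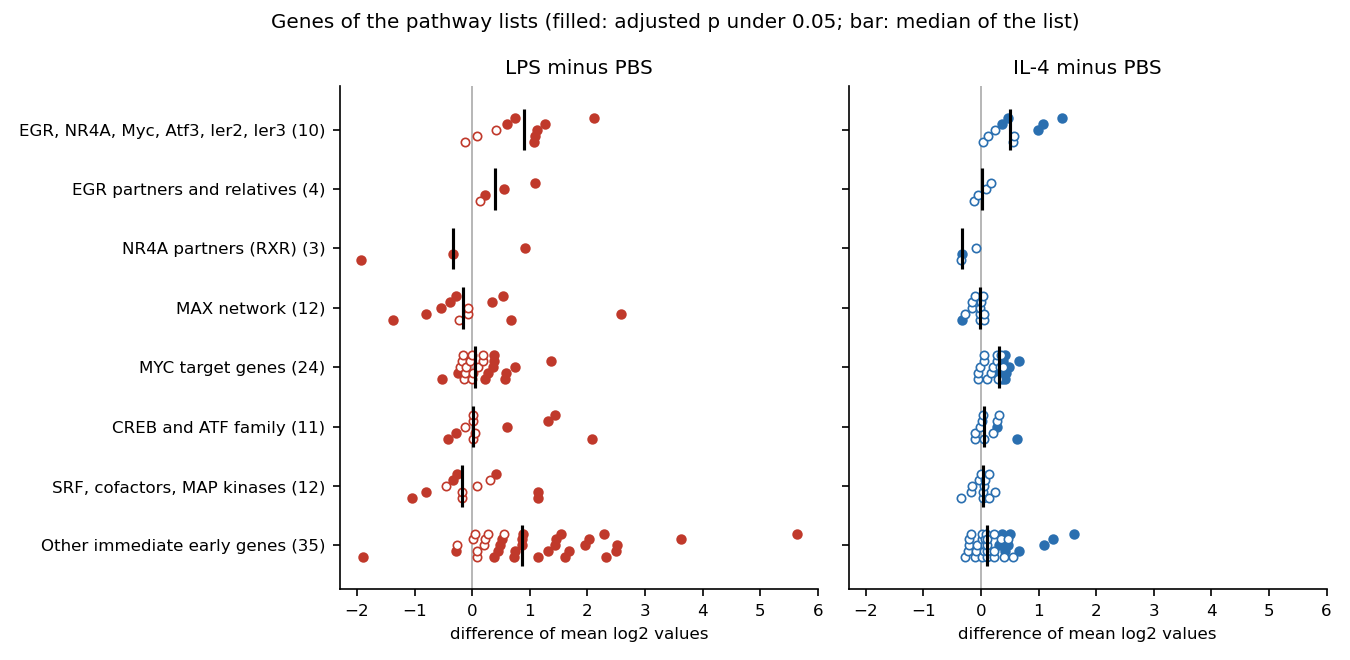
Differences of mean log2 values from PBS for the 10 early response genes and 7 related lists, with LPS on the left and IL-4 on the right; each point is a gene, filled where the adjusted p is under 0.05, the bar is the median of a list and the number of genes measured is in parentheses. The other immediate early genes spread from −1.89 to 5.63 with LPS and had a median of 0.10 with IL-4.

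For 1 gene of each kind, the rows most alike over the 9 arrays were found by Pearson r, as a description, since arrays of a condition share their stimulus. Egr2 was most like Naaladl2 (0.991), the neuropeptide gene Npvf (0.989) and the alternative activation gene Chil3 (0.987). Those most like Myc were Cst7 (0.984), a cystatin gene of activated microglia, Suco (0.976) and Pop4 (0.975), and those most like Atf3 were the transporter gene Abcc1 (0.996), the AP-1 gene Fosl2 (0.996) and Zfp407 (0.995). Ier3 was most like Seh1l (0.999), the interleukin 1 receptor antagonist gene Il1rn (0.998) and Bdp1 (0.998), and Nr4a1 was most like Cnot7 (0.991), Kctd1 (0.982) and Ppme1 (0.972). The genes alike in pattern differed in size: Chil3 rose by 5.47 with IL-4 and Cst7 by 1.94 and 1.80 with LPS and IL-4.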

How the data were processed

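Total RNA was hybridized to Affymetrix Mouse Exon 1.0 ST arrays. The authors deposited log2 values made with RMA and the affy package per the labels (versions not given), which corrects the background, equalizes array distributions and gives 1 value per gene. The table had 21212 rows, 9 arrays and no missing values. Array medians lay between 7.20 and 7.39. A single symbol was found for 18786 rows. The precision is limited by 3 arrays per condition.

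One limma model (version 3.58.1, R 4.3.3) with a mean per condition and eBayes was fitted to all 9 arrays, leaving 6 residual degrees of freedom beside a prior of 2.38. Benjamini-Hochberg adjustment covered all rows. Tables, motif searches and figures were made with Python 3.11.15, pandas 2.3.3, numpy 2.4.6 and matplotlib 3.10.9. The fit was checked on simulated data.

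The members and lists were chosen with earlier results of these data known. Named genes were the 10 members; of each list, the 3 largest changes and the brightest gene without a call in a comparison; and the 3 rows most like 5 members. Other genes (Fos, Fosb, Npas4, Arc, Rgs2, Per1, Srm, Creb1, Srf and the cell type markers) were named after their values were seen. Gene lists of cell types were used as checks.

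LPS and PBS arrays that share a number deviated together from their condition means (correlations 0.578, 0.651 and 0.800). This was not so throughout for IL-4 and PBS (0.339, −0.255 and 0.075) or LPS and IL-4 (0.289, −0.228 and 0.059). Deviations from a mean of 3 arrays are tied, so a replicate 3 that stands apart in both conditions makes the others correlate too. The correlations thus show that replicate 3 of LPS and PBS deviated alike, and cannot show pairing by number. The main fit used no replicate block. Replicates 1 and 2 were not told apart by this: LPS 1 with PBS 2 gave 0.542 and LPS 2 with PBS 1 gave 0.605, while replicate 3 of either condition correlated below 0 with replicates 1 and 2 of the other. Alternatives were the methods' Student's t-test, the 6 arrays compared, robust or trended eBayes, weighted arrays, quantile normalization, subtraction of array medians, omission of the dimmest 33.3% of rows (7071), the replicate number as a block, and omission of each array or of replicate 3 of LPS and PBS.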

Additional observations from a re-analysis of the deposited data

How the results depend on the processing

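The members called with LPS against PBS numbered 7, and between 6 and 8 over the 9 fits that left out 1 array and under the other settings. For LPS against IL-4 they numbered 7 and between 5 and 8. The 5 members called with IL-4 against PBS became 1 with the methods' t-test, 8 with array weights, 8 without replicate 3 of both LPS and PBS, and between 2 and 7 with 1 array left out. Over all rows, 1146 genes were called with IL-4 and 716 with the t-test, 8295 with array weights, 6389 without both replicate 3 arrays and between 466 and 2033 with 1 array left out, while with LPS 8014 genes were called, and 5303 with the t-test. With array medians subtracted, calls higher and lower were 5872 and 3323 with LPS (3266 and 4748 as deposited), 459 and 454 with IL-4 (711 and 435) and 9567 and 3697 for LPS against IL-4 (4458 and 5495). The replicate number as a block was fitted to all 9 arrays, so it also tied the IL-4 arrays and replicates 1 and 2 of LPS and PBS, for which no pairing was shown. It raised the members called with LPS from 7 to 8 (Egr1). Those for LPS against IL-4 rose from 7 to 8 (Nr4a1, adjusted p = 0.0262), and no member call with IL-4 against PBS changed. Block results for IL-4 thus rest on pairs that the correlations did not show throughout. Small differences without a call turned sign: Egr3 with IL-4 was −0.02 after quantile normalization, −0.01 with medians subtracted and −0.02 without PBS replicate 2, where its range with 1 array left out was −0.02 to 0.08, and Myc for LPS against IL-4 was −0.10 after quantile normalization, −0.01 without LPS replicate 2 and −0.00 without IL-4 replicate 1, with a range of −0.01 to 0.03 with 1 array left out. The causes of these shifts were not tested.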

Other observations

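Genes upstream of the early response were read beside all rows. Of all rows 37.8% were called with LPS (15.4% higher, 22.4% lower) and 5.40% with IL-4 (3.35% higher, 2.05% lower). Whether the counts of these small lists differ from those shares was not tested. Of 11 CREB and ATF family genes measured, LPS raised 4 and lowered 2, and IL-4 raised 2. Creb5 rose by 2.08 with LPS and 0.62 with IL-4, and Crem, whose short forms repress CRE promoters, by 1.43 and 0.27, of which 1 passed with IL-4 when array medians were subtracted. Jdp2, a repressor related to Atf3, rose by 1.32 with LPS, and Creb1 itself (0.01 and 0.06) and Creb3 (0.01 and −0.11) did not pass with either. Of 12 genes for serum response factor, its cofactors and MAP kinases, LPS raised 3 and lowered 4, and none passed with IL-4 (limma, all 12 between −0.34 and 0.24, 3 at an unadjusted p under 0.05). With array medians subtracted LPS raised 4 and lowered 2, and 1 gene was lower with IL-4. The kinase genes Mapkapk2 (1.15) and Map2k1 (1.14) rose with LPS, and Rps6ka5, whose product MSK1 phosphorylates CREB, fell by 1.05. Rps6ka3, a ribosomal S6 kinase gene, was 0.31 from PBS with LPS (adjusted p = 0.0503), and the SRF cofactor gene Mrtfb was lower with LPS than with IL-4 (−0.94). Srf was −0.17 from PBS with LPS and 0.24 with IL-4, and neither passed.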
